A study of Mus musculus with 47 samples.

Results

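Gene expression of the cells that the labels call CD4 was measured on 2 of 47 Affymetrix mouse arrays, and these 2 arrays were set against the other 45. Membership followed the sample title, whose first word was CD4 in both. The other 16 groups are named ETP (3 arrays), NKmature (2), IgM+SP (2), PreB (4), ProB (2), CLP (2), LMPP (5), GMP (3), GM (2), MkE (4), MkP (3), PreCFUE (3), CFUE (3), ProE (3), STHSC (2) and LTHSC (2), names commonly given to marrow stem cells, progenitors of each lineage and lymphocytes. All groups share 1 source: cells purified from bone marrow of adult C57Bl6 mice, with total RNA of 2000 cells per array amplified in 2 rounds. The labels give no genotype other than the strain, no treatment, no age beyond adult, no sorting markers for CD4 or any other group, and no statement on animals or pools. Arrays of a group are called biological replicates, and the p-values below rest on how far such arrays scatter, be it biological or technical.

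CD4 T cells, or helper T cells, recognise peptides on major histocompatibility complex (MHC) class II molecules with a T cell receptor whose signals run through the CD3 chains and the coreceptor CD4. They arise in the thymus and circulate as small resting cells between blood, lymph nodes, spleen and bone marrow, where naive, memory and regulatory forms can be found together. Resting lymphocytes divide rarely, whereas most marrow progenitors are cycling.

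The marker genes of the label were high on both CD4 arrays. Cd3g, a signalling chain of the receptor complex, had log2 intensities of 11.22 and 10.77 on the CD4 arrays, against a lowest, median and highest value of 2.54, 2.88 and 6.91 on the 45 other arrays. Cd3d, a second chain, had 10.81 and 10.95 on the CD4 arrays, against 2.99, 3.42 and 7.89. Bcl11b, a transcription factor needed for commitment to the T lineage, had 11.05 and 11.53, against 3.03, 3.44 and 6.44. The CD4 arrays lay above every other array for all 3 genes. Ccr7, the chemokine receptor that guides naive T cells into lymph nodes, had 10.72 and 11.13 on the CD4 arrays, against 2.86, 3.27 and 9.59 on the others. Its CD4 values again did not overlap with the others, but both IgM+SP arrays and the 4 PreB arrays were also high, as the plot of T cell genes on each array shows.

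**Figure D1:**
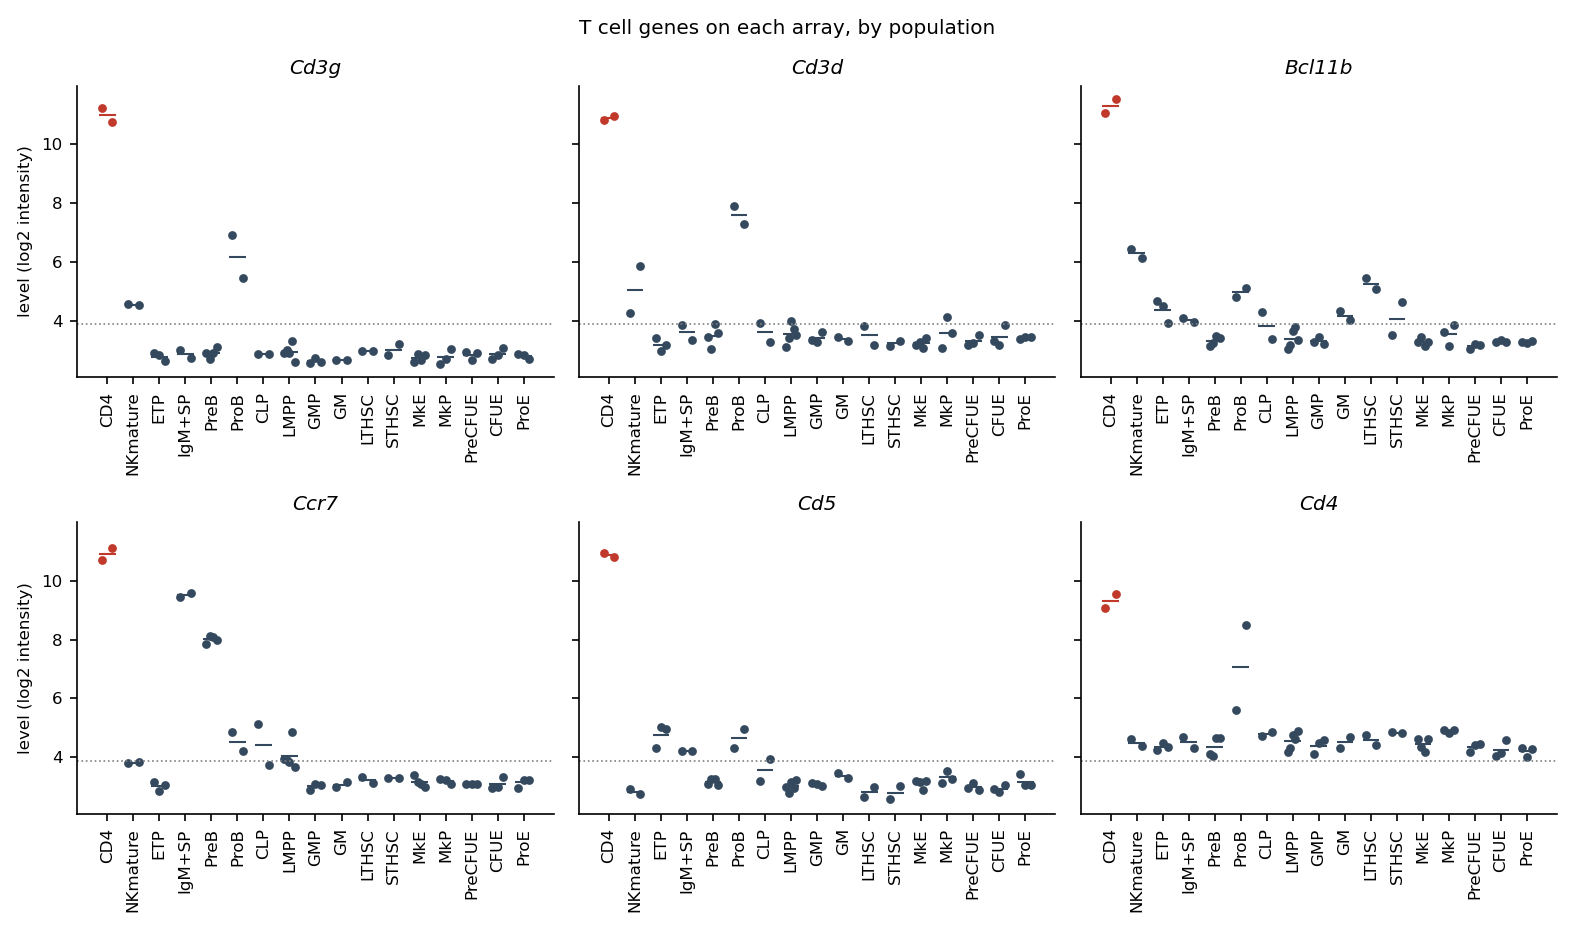
Levels of 6 T cell genes (log2 intensity, vertical axis) on each of the 47 arrays, grouped by population on the horizontal axis with the 2 CD4 arrays in red at the left. Points are arrays, short lines are group means, and the dotted line is the filter level of 3.89. For each of the 6 genes both CD4 points lie above all other points. The ProB arrays come next for Cd3g and Cd3d, and 1 ProB array comes next for Cd4.

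Of the 3 coreceptor genes Cd4 and Cd8b1 were higher in CD4 than the mean of the other groups and Cd8a did not pass (median log2 difference 2.13). Cd4 itself had 9.06 and 9.55 on the CD4 arrays, against 4.02, 4.49 and 8.49 on the others, where only 1 ProB array exceeded 6. Cd8a, which marks cytotoxic T cells, had 4.45 and 4.47 on the CD4 arrays, against 3.58, 4.47 and 5.95, and so lay within the range of the other arrays. Cd8b1, the partner chain of CD8, had 5.27 and 5.51 on the CD4 arrays, against 2.83, 3.16 and 5.07, a small gap with no overlap.

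Array medians ran from 13.8 to 16.9 on the linear scale and upper quartiles from 50.2 to 75.7, with both CLP arrays at the low end of the quartiles (50.2 and 50.7). The 2 CD4 arrays correlated at 0.981 over the 13949 genes tested. Of these genes 618 (4.43%) were at least 2-fold apart between them, 474 higher on replicate 1 and 144 higher on replicate 2. Sex-linked transcripts also divided the arrays. Xist, the RNA that silences 1 X chromosome in females, had 9.62 and 10.47 on the CD4 arrays, and the Y-linked Eif2s3y had 2.63 and 2.71. All arrays of 6 other groups (ProB, GM, MkE, MkP, PreCFUE and CFUE) and 2 of the 4 PreB arrays fell into the same class (Xist over 7, Eif2s3y at 5 or less). No array of the other 9 groups did, so for these groups population and sex class cannot be told apart in a comparison with CD4. Both NKmature arrays, 2 ETP arrays and 3 LMPP arrays had Xist and Eif2s3y over these marks together. Only PreB, ETP and LMPP held arrays of more than 1 class. A block on class in the fit therefore takes its shift from those arrays alone, with any other difference between them. Both arrays labelled ProB carried genes of NK cells and of plasmacytoid dendritic cells at high level (Gzma 11.52 and 11.58, Siglech 11.05 and 11.78) beside Cd3g and Cd3d, and little Pax5 (means of 3.31 in CD4 and 3.82 in ProB), which goes against the usual sense of that name. The counts that follow are therefore also given without this group.

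Against the equal-weight mean of the other 16 groups, 1581 genes were higher in CD4 (11.3% of the 13949 tested) and 1319 were lower (9.46%). Without the ProB group the counts were 1637 and 1363, and with the arrays of the CD4 sex class alone, which leaves 7 other groups, 1548 and 1422. A gene was called at an adjusted p under 0.05 (limma, Benjamini-Hochberg) and a difference of at least 2-fold. Differences below are log2, CD4 minus the mean of the other 16 groups, ± the standard error of the fit, and the median over all genes tested was -0.07. The 10 largest rises were Cd3g, Trbv1, Cd5, Ms4a4b, Bcl11b, Cd3d, Ccr7, Ifit1bl1, Cd2 and Thy1. The largest falls were Hacd1, Hoxa9, Osbpl1a, Chek1, Prkar2b, Ogfrl1, Cd93, Bcl11a, Mpo and Ifitm2.

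Genes of the T cell receptor complex had the largest median difference of the 27 gene lists. All 5 tested members were higher in CD4 than the mean of the others, with a median difference of 6.09 against -0.07 over all genes, and all 5 were also called higher than each single group. Cd3g differed by 7.84 ± 0.19 (adjusted p = 2.4e-28, limma) and Cd3d by 7.09 ± 0.25 (adjusted p = 1.9e-23, limma). Cd3e, the third CD3 chain, had 8.17 and 8.63 on the CD4 arrays, against 4.66, 5.29 and 6.01 on the others, with no overlap. Cd247, the zeta chain that carries most of the signalling motifs, had 10.40 and 10.77, against 3.31, 3.97 and 8.48. Its next highest group was NKmature, whose cells use the same chain with other receptors. Trat1, an adaptor associated with the receptor, had 7.60 and 7.59, against 3.04, 3.58 and 6.94. The constant region genes Trac, Trbc1 and Trbc2 are not named in the annotation used here. In RNA of pooled cells, a smaller number of T cells and less RNA per T cell cannot be told apart, which applies to every group here.

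In the RefSeq annotation of assembly GRCm38.p6, Cd3g, Cd3d and Cd3e follow one another on chromosome 9. The promoter windows of Cd3g and Cd3d, and that of Cd5, are shown because these 3 genes are among the largest rises in CD4. Each window holds 300 bases, from 250 before to 50 after the transcription start, taken from RefSeq (GRCm38.p6) and written 5′ to 3′ on the gene's own strand. Cd3g lies at chr9:44980382-44980681 on the minus strand, Cd3d at chr9:44981536-44981835 on the plus strand and Cd5 at chr19:10738925-10739224 on the minus strand. Capitals mark letters of the GATA motif (AGATAA) in Cd3g, ACTTCC (the reverse complement of the ETS letters GGAAGT) and ATCAAAG (TCF/LEF factors) in Cd3d, and GGAAGT in Cd5.
Cd3g: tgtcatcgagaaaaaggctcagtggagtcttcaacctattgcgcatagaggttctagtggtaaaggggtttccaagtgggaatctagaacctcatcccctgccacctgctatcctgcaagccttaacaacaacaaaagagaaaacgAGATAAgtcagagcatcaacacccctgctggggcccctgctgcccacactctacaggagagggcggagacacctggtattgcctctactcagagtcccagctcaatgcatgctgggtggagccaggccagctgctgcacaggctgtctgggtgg
Cd3d: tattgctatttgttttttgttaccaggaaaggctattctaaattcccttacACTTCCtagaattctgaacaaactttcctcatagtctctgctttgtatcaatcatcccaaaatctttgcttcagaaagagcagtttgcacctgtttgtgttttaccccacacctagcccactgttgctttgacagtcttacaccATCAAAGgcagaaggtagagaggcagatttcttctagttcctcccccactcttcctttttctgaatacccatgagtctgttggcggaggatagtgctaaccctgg
Cd5: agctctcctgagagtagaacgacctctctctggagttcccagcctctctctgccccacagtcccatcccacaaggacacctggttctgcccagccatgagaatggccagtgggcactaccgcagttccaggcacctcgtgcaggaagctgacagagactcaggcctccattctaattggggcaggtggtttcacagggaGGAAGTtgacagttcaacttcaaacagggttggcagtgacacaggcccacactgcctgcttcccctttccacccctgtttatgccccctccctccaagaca

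Genes that carry the signal from the T cell receptor came next in median difference. Of the 17 tested members, 16 were higher in CD4 than the mean of the others, none was lower, and 12 were called higher than each single group, with a median difference of 4.53. Lat, the membrane scaffold phosphorylated on receptor engagement, had 10.74 and 10.17 on the CD4 arrays, against 4.04, 6.12 and 7.94 on the others, and differed by 4.53 ± 0.21 (adjusted p = 6e-20, limma). Rasgrp1, which activates Ras below the receptor, differed by 6.23 ± 0.22, and Skap1, an adaptor for integrin activation, by 6.15 ± 0.20. Cd6, a scavenger receptor family member related to Cd5, had 9.29 and 9.77, against 3.65, 4.20 and 5.93. Prkcq, the protein kinase C form of T cells, had 10.86 and 11.03, with NKmature next at a mean of 9.14. Lcp2, Fyn, Ptpn22 and Sh2d1a rose against the mean but were not called against every group, with ProB next for Fyn and NKmature for the other 3. Zap70, the kinase that docks on the phosphorylated CD3 chains, is uncertain: its brightest probe set had 5.85 and 6.05, against 5.81, 6.29 and 6.62 (difference -0.32 ± 0.16), while its 3 probe sets ranged from -0.32 to 4.27.

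Receptors that tune activation were also high. Of 12 tested costimulatory and inhibitory receptors and ligands, 10 were higher in CD4, none lower, and 7 were higher than each single group (median difference 3.98). Cd28, the main costimulatory receptor, had 9.33 and 10.31 on the CD4 arrays, against 2.38, 3.05 and 8.27 on the others. Icos, its inducible relative, had 10.26 and 10.15, against 2.91, 3.67 and 8.67. For both the high values outside CD4 came from NKmature, with means of 8.19 and 8.59. The inhibitory receptor Ctla4 had 8.55 and 7.85 on the CD4 arrays, against 2.98, 3.33 and 4.45, and differed by 4.74 ± 0.17 (adjusted p = 3.6e-23, limma). Pdcd1, which encodes the inhibitory receptor PD-1, had 7.16 and 6.78, against 2.42, 2.85 and 3.35. No group other than CD4 had a mean of Pdcd1 over the filter level of 3.89, so it too entered the test only through CD4. Cd40lg, the ligand by which helper T cells activate B cells, had 4.26 and 3.98, against a mean of 4.32 over the other groups, a difference of -0.20 ± 0.18 (adjusted p = 0.39, limma). Lag3 had 4.91 and 4.29, under the ProB mean of 6.70.

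All 10 tested genes linked to regulatory T cells were higher in CD4, and 6 of them were higher than each single group (median difference 3.60). Of these 10, Foxp3 and Itgae were over the filter level in CD4 alone, so they entered the test only through their CD4 level and had to differ, and the count and median over the list are descriptions. Foxp3, the transcription factor that defines these cells, had 6.91 and 6.81 on the CD4 arrays, against 2.92, 3.32 and 3.79 on the others, a difference of 3.55 ± 0.14. Both CD4 arrays were clearly above the highest other array. Izumo1r, the folate receptor family member found on these cells, had 8.50 and 8.74, against 3.56, 4.09 and 5.52. Tnfrsf4, which encodes OX40, had 9.26 and 8.46, against 4.19, 4.97 and 5.96. Gpr83 had 6.60 and 7.0, against 3.27, 3.91 and 4.82. Il2ra, the high-affinity interleukin-2 receptor chain, had 6.23 and 6.02 and rose against the mean by 2.33 ± 0.42, but stayed under the PreB mean of 8.02. The share of Foxp3-positive cells in the CD4 samples is not measured by these arrays.

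Genes of naive and recirculating T cells rose as well. Of 12 tested, 10 were higher in CD4, none lower, and 5 were higher than each single group (median difference 3.97). S1pr1, the receptor for exit from lymphoid tissue, had 9.60 and 9.26 on the CD4 arrays, against 3.85, 4.51 and 7.45. Dapl1 had 8.22 and 9.47, against 2.56, 3.09 and 3.75, and no other group mean passed the filter, so it entered the test only through CD4. Itgb7, an integrin chain for homing to the gut, had 11.33 and 11.44, with ProB next at a mean of 10.18. Il7r, the survival receptor of lymphocytes, had 11.65 and 11.82 and differed by 5.31 ± 0.55, with PreB next and not distinguishable from it (adjusted p = 0.83, limma). Cxcr4, which retains cells in the marrow, had 7.15 and 6.17, against a mean of 8.10 over the other groups, a difference of -1.44 ± 0.69 (adjusted p = 0.095, limma). Ccr9 rose by 2.26 ± 0.93 (adjusted p = 0.048, limma), and that call was lost under many settings: when CD4 replicate 1 (adjusted p = 0.16) or replicate 2 (0.28) was left out, in most fits without an array of another group (0.051 to 0.056), with no filter (0.066), the trended robust spread (0.074), quantile normalization (0.077) or a floor of 16 (0.13), and with the mean of all its probe sets (difference 0.41, adjusted p = 0.26).

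Of 23 tested transcription factors of the T lineage, 16 were higher in CD4 and none lower (median difference 2.57), but only Bcl11b, Lef1 and Nfatc2 were higher than each single group. Lef1, a partner of Wnt signals in thymocytes, had 7.53 and 8.13 on the CD4 arrays, against 3.2, 3.64 and 6.58. The 6 probe sets of Nfatc2 disagreed in sign, from -0.16 to 3.37. Gata3, needed for CD4 T cells, had 6.68 and 6.69 and differed by 2.57 ± 0.21 from the mean, but by 0.12 from LTHSC. Zbtb7b, which directs thymocytes to the CD4 fate, had 6.10 and 6.25, with CLP next at a mean of 5.71, and differed by 1.03 ± 0.20. That is barely 2-fold, and the call of Zbtb7b was lost with the mean of all probe sets (0.95), quantile normalization (0.85), the sex class block (0.79) or the replicate block (0.99), and without CD4 replicate 2 (0.95). Tbx21 and Eomes, factors of cytotoxic cells, were far under their NKmature means: Tbx21 had 6.07 and 5.30 in CD4 and a mean of 10.03 in NKmature, and Eomes had 4.95 and 5.36 in CD4 and a mean of 9.77 in NKmature.

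Of 13 tested cytokine and cytokine receptor genes, 10 were higher in CD4, none lower, and 3 were higher than each single group: Il21, Il6st and Il27ra (median difference 2.34). Il21, a helper cytokine for B cells, had 5.47 and 6.32 on the CD4 arrays, against 2.43, 2.75 and 3.48 on the others, and was over the filter in no other group, so it entered the test only through CD4. Il6st, the shared signalling chain of the interleukin-6 family, had 9.51 and 9.31, against 2.85, 6.09 and 7.53. Ifng had 5.77 and 5.70, under the ProB mean of 8.14, and Il17a had 3.32 and 3.65, under the filter. Il4 had 5.13 and 4.44 and rose by 1.52 ± 0.18, but its LTHSC mean was 4.97. Il2, Il10 and Il13 did not pass the filter on dim genes in any group.

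Gimap genes, which encode GTPases that sustain lymphocyte survival, were all 8 higher in CD4 with a median difference of 4.24. Gimap3 had 10.53 and 10.56 on the CD4 arrays, against 4.03, 4.55 and 8.75, and Gimap6 had 10.45 and 10.39, against 3.35, 6.87 and 9.17. These were the 2 called higher than each single group. Gimap4 had 11.92 and 12.01, and its NKmature mean of 12.38 was not distinguishable from it (adjusted p = 0.28, limma). Among 12 genes of quiescence, 10 were higher in CD4 (median difference 1.79), with Slfn2, whose loss ends T cell quiescence in mice, at a mean of 10.95 on the CD4 arrays, against 4.65, 5.55 and 10.04 on the others. The list had a slightly higher mean level in PreB (9.64) than on the CD4 arrays (9.62 and 9.58), and 7 to 10 members were called over the settings tried.

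Interferon-stimulated genes had their highest list means in CD4 (7.62 and 7.83 on its arrays) and in ProB (7.64). Of 9 tested, 8 were higher in CD4 than the mean (median difference 1.76), and Ifit1 and Ifit3 were higher than each single group. Ifit3 had 7.25 and 7.68 on the CD4 arrays, against 3.88, 4.58 and 5.46 on the others. Ifit1 had 8.20 and 8.25, with ETP next at a mean of 7.06. Irf7, Mx1, Bst2 and Usp18 had higher means in ProB than in CD4. The call of Mx1 was lost under several settings. Among them were a floor of 16 (0.52), the replicate block (0.96), the arrays of the CD4 sex class alone (0.74) and the sex class block (0.15). Rsad2 was apart between the CD4 arrays (8.51 and 10.34), and its call was lost without replicate 2 (0.85, adjusted p = 0.30) and after blocking on sex class (1.13, adjusted p = 0.11).

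Antigen presentation genes rose in counts that changed with a block on the sex class, whose shift rests on PreB, ETP and LMPP arrays alone. Of 9 MHC class I genes, 7 were higher in CD4 (median difference 1.63), while 1 of 9 was called after blocking on that class and 7 of 9 with the arrays of the CD4 class alone. H2-K1, a classical class I heavy chain, had 13.35 and 13.26 in CD4 and a mean of 11.68 over the other groups, a difference of 1.62 ± 0.37 that fell to 0.64 (adjusted p = 0.18) under the block. Of 7 MHC class II genes, 5 were higher (median difference 2.42) and 3 under the block. H2-Ab1, 1 of those 5, also shrank to 0.70, under the 2-fold mark, without CD4 replicate 1. H2-Aa, a class II chain of professional presenting cells, had 11.12 and 10.73 on the CD4 arrays, against 4.36, 7.83 and 13.58 on the others. Cd74, the invariant chain, had 8.72 and 8.04, under the ProB mean of 10.39 and the IgM+SP mean of 9.85. Beside these values, 3 of the 12 genes of the B cell list were higher in CD4 than the mean (Ighm, Ms4a1 and Cd22) and 1 was lower (Ebf1), and the mean level of the list was 5.47 and 5.65 on the CD4 arrays, against 3.54 to 10.57 on the others. Ighm had 12.30 and 12.45 on the CD4 arrays, while Cd79a had 4.52 and 4.42, Pax5 3.26 and 3.36, and Ebf1 2.96 and 2.88. The part of other presenting cells in the class II levels was not tested.

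Counted against each population in turn, 176 genes were highest in CD4, called higher in all 16 comparisons (1.26% of the genes tested). By the same rule NKmature had 200 such genes, ProB 171 and LTHSC 109, so the number for CD4 was the second largest of the 17 groups. Its place before ProB rests on a small difference in count, which was not tested. The gap to the next group ran from 1.00 to 6.11 with a median of 1.69, and 31 genes had a gap of at least 3. The CD4 arrays did not overlap with any other array for 175 of the 176, beside 512 of all genes tested (3.67%) whose CD4 arrays lay above all others. The rule already asks for a called difference from every group, so little overlap follows from it. The next population was NKmature for 49 genes, ProB for 20, CLP for 18, IgM+SP and LTHSC for 16 each and ETP for 13. For 31 of the 176 no other group mean passed the filter, so these entered the test only through CD4. Without ProB 199 genes were highest, and with the arrays of the CD4 sex class alone, against 7 groups, 387.

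Cd5, a receptor that damps T cell receptor signals, had the largest gap. It had 10.93 and 10.82 on the CD4 arrays, against 2.58, 3.14 and 5.02 on the others, and ETP was next at a mean of 4.77 (gap 6.11 ± 0.21, adjusted p = 1.7e-23, limma). Slfn1, a schlafen gene first described in mouse T cell quiescence, had 9.45 and 9.33, against 2.64, 2.89 and 4.22. Both genes were low in all other populations. Tdrp had 8.08 and 8.17 on the CD4 arrays, against 2.57, 2.85 and 3.43. Tnfrsf25, which encodes the T cell receptor for the cytokine TL1A, had 7.80 and 8.30, against 2.80, 3.25 and 3.96. Slfn1, Tdrp and Tnfrsf25 had no other group mean over the filter, so they entered the test only through CD4. Nsg2 had 10.05 and 10.07, against 3.48, 4.32 and 6.43, and ETP was again next.

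The other genes with large gaps have varied roles. Inpp4b, a lipid phosphatase of the phosphoinositide pathway, differed most between the CD4 arrays (7.62 and 9.32), yet both lay above the highest other array (4.44). Ifit1bl1, of the interferon-induced Ifit family, had 10.99 and 11.66, against 3.35, 4.18 and 7.52. Ifi213, of the interferon-inducible p200 family, had 9.06 and 8.52, against 2.58, 2.95 and 6.0. Cxcr6, a chemokine receptor of memory and tissue T cells, had 7.49 and 7.54, against 2.50, 2.78 and 3.72. Tesc, a calcium-binding protein, had 9.51 and 9.76, against 3.33, 3.98 and 6.33. Als2cl, Pdlim4, Trav12n-2 and Trav6-3 complete the 20, with gaps of 4.07, 4.18, 3.91 and 3.88. For Cxcr6, Pdlim4, Trav12n-2 and Trav6-3 no other group mean passed the filter, so they entered the test only through CD4. The 2 Trav genes are receptor variable segments with close copies in the genome, and their values are uncertain in that respect. Trbv1, also a variable segment, rose by 7.64 ± 0.45 against the mean, but its ETP mean was 12.19, beside 12.44 and 12.45 on the CD4 arrays (adjusted p = 0.77, limma).

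**Figure D2:**
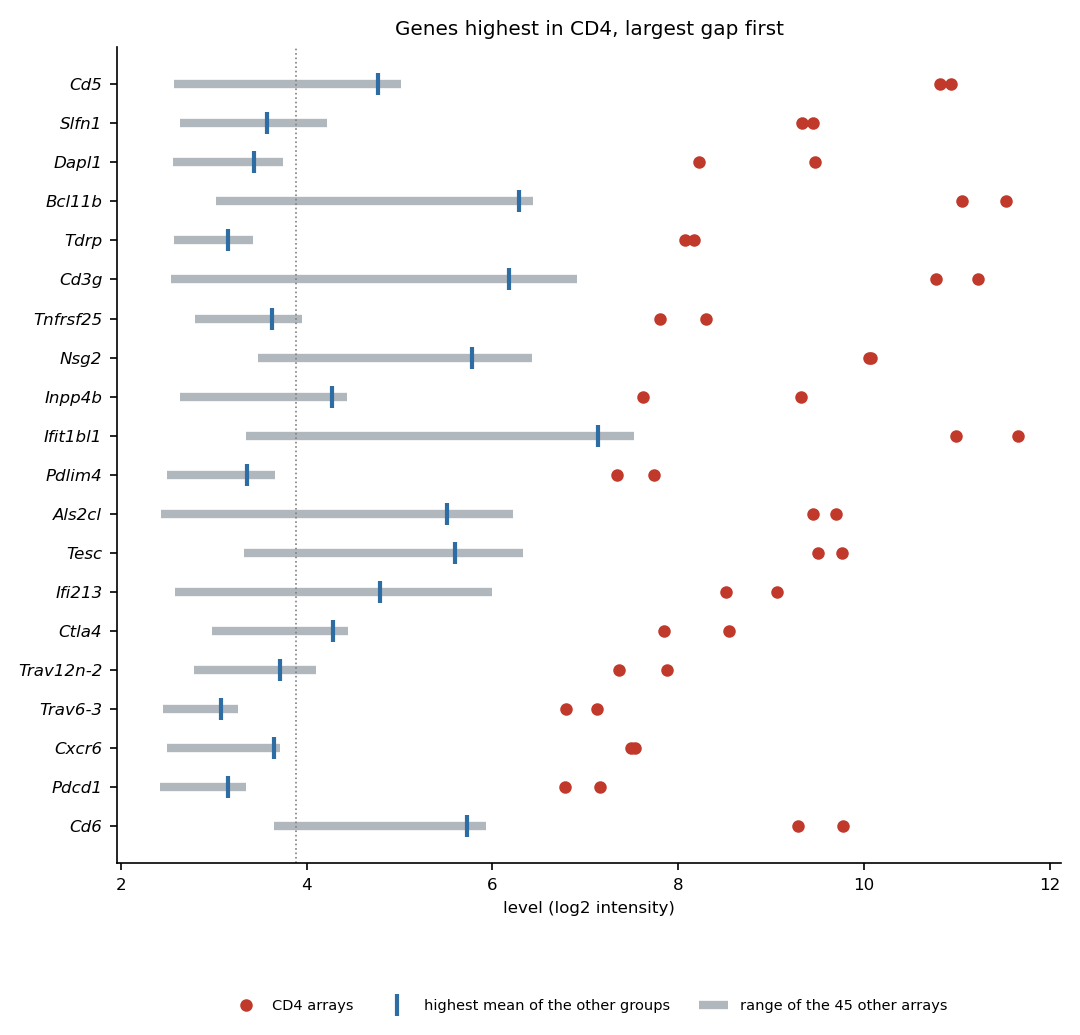
The 20 named genes highest in CD4, ordered by the gap to the next population, with log2 intensity on the horizontal axis. Red points are the 2 CD4 arrays, blue ticks the highest mean among the other 16 groups, grey bars the range of the 45 other arrays and the dotted line the filter level of 3.89. Both red points lie right of the grey bar for all 20 genes, and the gap runs from 3.80 (Cd6) to 6.11 (Cd5).

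On the other side, 83 genes were lowest in CD4, called lower than each of the 16 groups (0.595% of the genes tested). CLP had 336 such genes and ProE 77, so CD4 was second by a small difference in count, which was not tested. The median gap was -1.44 and the largest -3.02, so the lowest genes stood less far from the next group than the highest. The CD4 arrays did not overlap with the others for 76 of the 83, beside 267 of all genes tested (1.91%) whose CD4 arrays lay under all others. Here too the rule itself leaves little room for overlap. The next lowest population was LTHSC for 27 genes and ProB and IgM+SP for 14 each. In 21 of the 83 the CD4 mean lay at or under the filter level, where the scale has little room. Without ProB 93 genes were lowest, and 241 with the arrays of the CD4 sex class alone against 7 groups.

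The 4 lowest genes with the largest gaps were not cell cycle genes. Vcl, which encodes vinculin of cell adhesion sites, had 5.13 and 3.92 on the CD4 arrays, against 7.02, 8.55 and 10.73 on the others. Zeb2, a transcription factor of several blood lineages, had 3.43 and 4.39, against 5.97, 8.01 and 10.12. Hacd1, an enzyme that elongates very long fatty acids, had 2.69 and 2.81, against 5.27, 9.83 and 11.34, and its difference of -6.49 ± 0.21 was the largest fall against the mean (adjusted p = 1.4e-24, limma). Arhgap21, a regulator of small GTPases, had 4.24 and 4.82, against 6.99, 8.70 and 9.88. None of these CD4 values overlapped with another array.

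The other 8 act in chromosome replication and division. Cks1b, a subunit of cyclin-dependent kinases, had 8.16 and 7.83 on the CD4 arrays, against 10.23, 11.78 and 12.33. Chek1, the replication checkpoint kinase, had 4.59 and 3.03, against 5.42, 9.12 and 10.51. Cdc20, the activator of the anaphase-promoting complex, had 6.29 and 6.33, against 8.0, 10.58 and 11.41. Every CD4 value was under the lowest other value. Trip13, which dismantles checkpoint complexes, Cdca5, which protects sister chromatid cohesion, and Dtl, which marks Cdt1 for destruction, had gaps of -2.40, -2.27 and -2.16. Mcm10, an initiation factor, and Uhrf1, which maintains DNA methylation at replication, had gaps of -2.13 and -2.09. With the mean of all probe sets in place of the brightest, the gaps of Cdc20, Dtl and Mcm10 shrank to -0.94, -0.92 and -0.93 and were no longer called, and 46 genes in all were lowest.

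**Figure D3:**
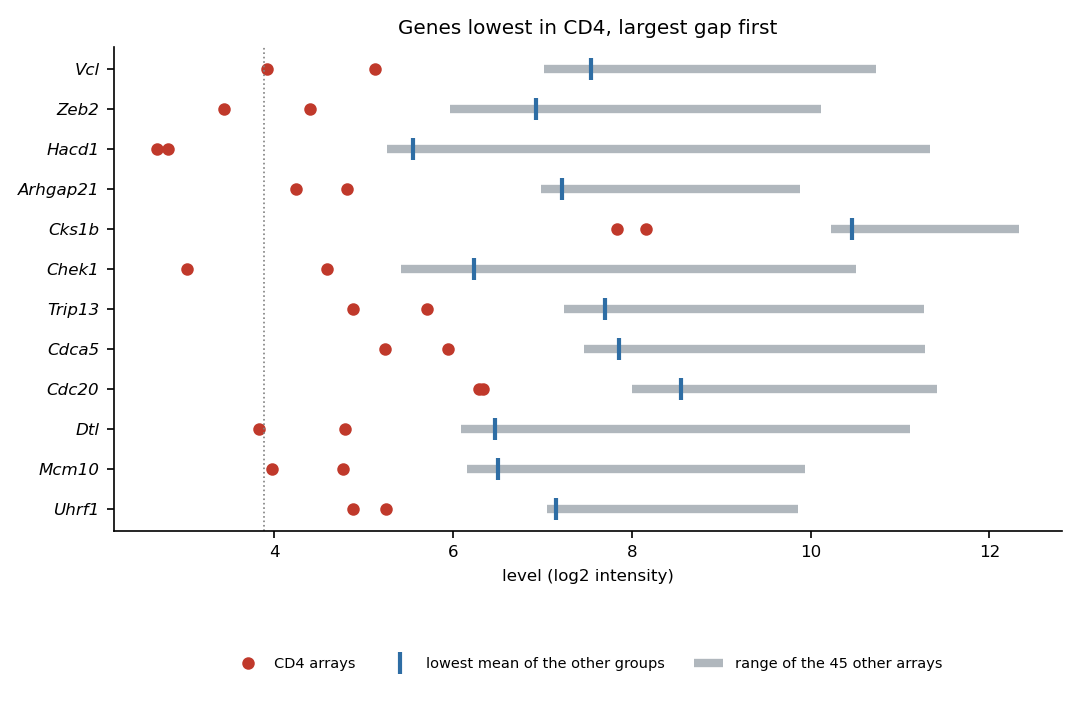
The 12 named genes lowest in CD4, ordered by the gap to the next population, with log2 intensity on the horizontal axis. Red points are the 2 CD4 arrays, blue ticks the lowest mean among the other 16 groups, grey bars the range of the 45 other arrays and the dotted line the filter level of 3.89. Both red points lie left of the grey bar for all 12 genes, with gaps from -2.09 (Uhrf1) to -3.02 (Vcl).

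Genes of cell division were low in CD4. All 19 tested mitosis genes fell in CD4 (median difference -3.08), in a comparison where 9.46% of all genes did, and 5 of them were lowest of all groups: Cdc20, Aurkb, Bub1b, Top2a and Mki67. Mki67, the proliferation marker, had 8.05 and 7.92 on the CD4 arrays, against 8.08, 11.39 and 12.98 on the others, with LTHSC next at a mean of 9.14. Top2a, the topoisomerase of dividing cells, had 6.91 and 6.87, against 7.66, 10.48 and 11.71. The mean level of the list was 5.19 and 5.03 on the CD4 arrays, against means from 6.02 (LTHSC) to 9.83 (ProE) in the other groups, although the lowest single array was at 4.95, so the CD4 arrays were not apart from all others. For genes such as Ccna2, Cenpe and Nusap1 the LTHSC mean did not differ from CD4 by the test.

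Of 21 DNA replication genes, 19 fell (median difference -2.08), and Pole, Gins1 and Cdc6 were lowest of all groups. Cdc6, which loads the replicative helicase, had 3.90 and 3.55 on the CD4 arrays, against 4.68, 7.80 and 11.16. Pole, the leading strand polymerase, had 4.89 and 5.34, against 7.09, 8.61 and 9.48. Both stood under every other array. Pcna, the polymerase clamp, was an exception at 10.91 and 11.13, against a mean of 11.12 over the other groups (difference -0.10 ± 0.31, adjusted p = 0.81, limma), and Tyms missed the 2-fold mark (-0.60 ± 0.23). The counts were 19 of 19 mitosis genes under every setting tried and 17 to 19 of 21 replication genes. Genes of ribosome biogenesis mostly did not differ: of 14, Dkc1 and Gnl3 fell and Bop1 rose, while Ncl, Npm1 and Fbl did not pass (median difference of the list -0.45). Without CD4 replicate 1 none of the 14 was called (Dkc1 at -0.97, Gnl3 at -0.93 and Bop1 at 0.91), Gnl3 was also lost under the sex class block (-0.74), and Bop1 was lost under many settings, without CD4 replicate 2 (adjusted p = 0.085) among them, and was at -0.25 under that block. Of 12 ribosomal protein genes only Rps15 was called (median difference 0.52). Over all genes tested 11.3% were higher and 9.46% lower, so the main counts of both ribosomal lists lie near those shares.

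The promoter windows of Cdc6 and Cdc20 are shown as examples of the genes lowest in CD4, again 300 bases from RefSeq (GRCm38.p6) written 5′ to 3′ on the gene's strand. Cdc6 lies at chr11:98907901-98908200 on the plus strand and Cdc20 at chr4:118437294-118437593 on the minus strand. The window of Mcm10, searched for the same motifs and not printed, held CCAAT but no E2F or CHR letters. Capitals mark GCGGGAAA (the reverse complement of the E2F letters TTTCCCGC) in Cdc6, and CCAAT (the CCAAT box, bound by NF-Y) and TTTGAA (the cell cycle homology region, CHR) in Cdc20.
Cdc6: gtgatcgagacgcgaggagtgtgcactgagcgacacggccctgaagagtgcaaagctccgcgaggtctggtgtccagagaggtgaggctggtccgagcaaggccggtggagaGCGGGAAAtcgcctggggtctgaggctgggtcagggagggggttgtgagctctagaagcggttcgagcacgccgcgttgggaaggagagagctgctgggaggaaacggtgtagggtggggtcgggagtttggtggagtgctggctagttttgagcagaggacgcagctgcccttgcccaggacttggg
Cdc20: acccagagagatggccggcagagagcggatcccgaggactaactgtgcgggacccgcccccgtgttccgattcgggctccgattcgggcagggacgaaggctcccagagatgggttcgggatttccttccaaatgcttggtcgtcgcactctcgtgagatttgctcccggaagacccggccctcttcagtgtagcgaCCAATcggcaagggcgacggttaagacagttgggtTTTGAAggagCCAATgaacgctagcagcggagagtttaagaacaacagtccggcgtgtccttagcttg

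Over all windows, letters of these motifs were counted on both strands. A window was found for 138 of the 176 highest genes (183 windows) and for 65 of the 83 lowest (81 windows). E2F letters (TTTCCCGC, with the variants TTTCGCGC, then TTTGCCGC and lastly TTTGGCGC) were found in 1.09% of windows of the highest genes and 14.8% of the lowest, beside 3.64% of genes tested and 2.27% of all genes in the table. CCAAT was found in 29.5% of windows of the highest genes and 53.1% of the lowest, beside 37.3% of genes tested and 37.4% of all. TTTGAA was found in 9.84% and 22.2%, beside 12.5% and 17.9%. ETS letters (GGAAGT) were found in 29.0% of windows of the highest genes and 14.8% of the lowest, beside 26.8% of genes tested and 23.8% of all. RUNX letters (TGTGGT) gave 15.3% and 13.6%, beside 13.3% and 16.8%. TCF/LEF letters (TTCAAAG or ATCAAAG) gave 8.74% and 2.47%, beside 6.30% and 8.65%, and GATA letters (AGATAA) 8.20% and 3.70%, beside 7.15% and 11.2%. TTCAAAG holds TTTGAA on its other strand, so these 2 counts overlap. The shares are descriptions of letters in a fixed window and carry no test.

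Stem and progenitor genes were low throughout. All 18 tested members fell in CD4 (median difference -3.28), 10 of them to a mean at or under the filter level. Over the settings tried 16 to 18 were called. Procr was lost under the sex class block (-0.58, adjusted p = 0.23) and with the arrays of the CD4 sex class alone (-0.25, adjusted p = 0.24), and Fgd5, at -1.02 ± 0.25, was lost under both (-0.71 and -0.53) and under several other settings. Mecom was lost with the mean of all probe sets (-0.61) and without CD4 replicate 2 (-1.19, adjusted p = 0.059). Kit, the stem cell factor receptor, had 3.98 and 2.88 on the CD4 arrays, against 3.23, 9.23 and 11.06 on the others. Hoxa9, a homeobox gene of early progenitors, had 3.08 and 3.41, against 3.06, 9.35 and 12.41. Mature cells of other groups were as low: for Kit the next group was IgM+SP, and for Hoxa9 it was NKmature. Only Cdk6, a kinase of early progenitors, was lower in CD4 than in each single group, at 7.36 and 7.39, against 8.05, 11.24 and 12.59.

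Thymocyte stage genes gave a mixed picture. Of 12 tested, Dtx1, Notch1, Ccr9 and Cd8b1 were higher and Rag1 and Rag2 were lower, with a median difference near that of all genes. Rag1, needed to assemble receptor genes, had 2.79 and 2.95 on the CD4 arrays, against a PreB mean of 11.15, and its call was lost without CD4 replicate 1 (-1.36, adjusted p = 0.051). Ptcra, the pre-T cell receptor chain, had 3.35 and 3.53, and Dntt had 7.27 and 7.96, against a CLP mean of 13.25. Dtx1, a Notch target, had 10.16 and 10.09, against 4.75, 5.55 and 9.07, and was higher than each single group.

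Markers of other cell types that a sort could hold are given for whole lists. In the comparison with the mean, 11.3% of all genes tested were higher and 9.46% lower. Of 12 NK and cytotoxic genes, Klrd1, Prf1 and Ccl5 were higher in CD4 than the mean and none was lower (median difference -0.39). After blocking on sex class 7 were higher and the median turned to 1.7. Their mean level was 5.82 and 5.60 on the CD4 arrays, against 3.50 to 11.06 on the others, and Ncr1, Klre1 and Klrk1 were under the filter in CD4. Of 12 B cell genes, Ighm, Ms4a1 and Cd22 were higher and Ebf1 was lower (median difference -0.12), while after that block 2 were higher and 5 lower (-0.81). The call of Cd22 was also lost without CD4 replicate 2 (1.28, adjusted p = 0.090). The probe sets of Ighm ranged from -0.71 to 3.73. Of 13 granulocyte and monocyte genes 4 fell (Mpo, Prtn3, Ctsg and Csf3r) and none rose (median difference -2.13), with a mean level of 4.41 and 4.79, against 3.95 to 9.35. After blocking on sex class 2 of them rose (Lyz2 by 2.34 and Csf1r by 2.76), 3 fell and the median turned to 0.67. The call of Csf3r was lost under that block (-0.69, adjusted p = 0.063), with the arrays of the CD4 sex class alone (-0.63) and with a floor of 16 (-0.94). Of 7 dendritic cell genes Tcf4 and Flt3 fell and none rose (5.69 and 5.34, against 5.33 to 10.30, median difference -0.58), and of 9 megakaryocyte genes Itga2b, Gp5 and Vwf fell and none rose (3.77 and 4.07, against 3.61 to 8.23, median difference -0.60). The call of Gp5 was lost without CD4 replicate 1 (-1.08, adjusted p = 0.054).

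Erythroid genes were apart between the 2 CD4 arrays. Some other lists were apart too, such as immediate early genes (list means of 7.75 on replicate 1 and 7.19 on replicate 2). Of 11 tested, 8 fell (median difference of the list -1.86), but Alas2, the haem synthesis enzyme of red cells, rose, with 7.53 and 9.30 on the CD4 arrays, against 2.80, 3.48 and 10.32. Slc4a1, the red cell anion exchanger, had 5.93 and 8.38, against 2.70, 3.18 and 12.06, and its call was lost without replicate 2 (1.83, adjusted p = 0.061). In both cases replicate 2 was the higher array. The erythroid regulators Klf1 (4.42 and 4.81) and Gfi1b (3.61 and 3.13) were low on both. Among the falls, that of Car2 shrank to -0.89, under the 2-fold mark, without CD4 replicate 1. The list mean was 5.06 and 5.79 in CD4, against 4.32 to 10.91 on other arrays. The part of red cell RNA in other CD4 results was not tested. Of 12 immediate early genes only Cd69, an early activation antigen, was called higher, at 9.15 and 8.77, against a mean of 6.48 over the other groups (median difference of the list 0.85). In the arrays of the CD4 sex class alone 10 of these 12 were called higher. Of 9 Bcl2 family genes only Bcl2 rose, by 1.56 ± 0.21, and the other 8 did not pass, while 1 to 4 were called higher over the settings tried. Over all genes tested 11.3% were called higher, so the main counts of the immediate early and Bcl2 lists lie near that share.

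**Figure D4:**
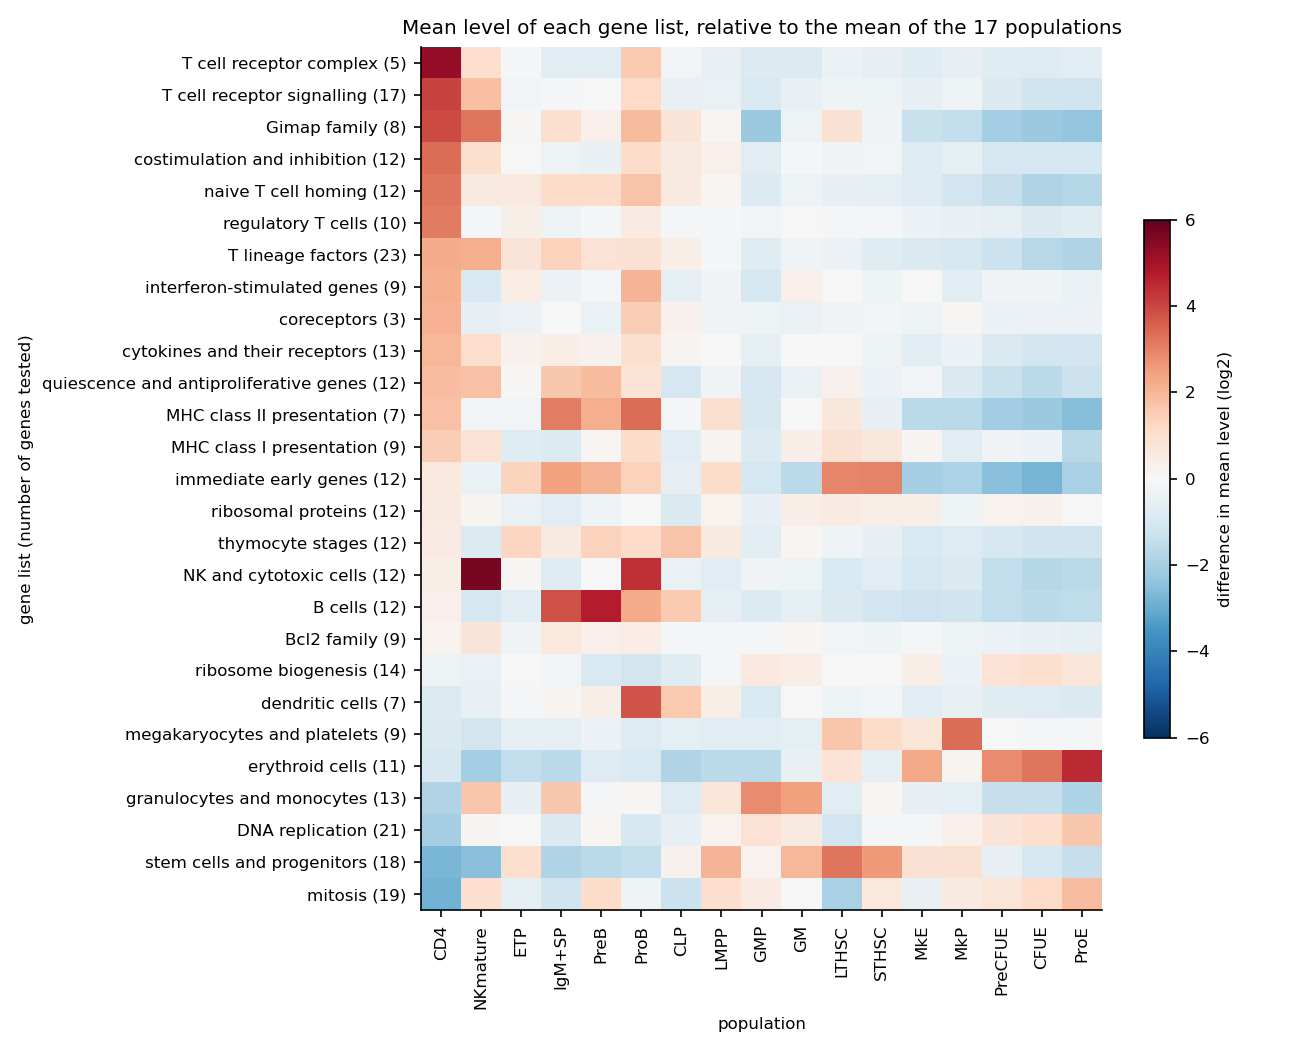
Mean level of each of the 27 gene lists in each of the 17 populations, shown as the log2 difference from the mean of the 17 populations (colour, red above and blue below), with CD4 in the left column. Numbers in brackets are genes tested, and lists are sorted by their value in CD4. The T cell receptor complex is the most red and mitosis the most blue in the CD4 column, and NKmature and ProB share part of the red.

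Among the 16 single comparisons, ProB differed from CD4 in the fewest genes. Against ProB 1436 genes were higher in CD4 (10.3%) and 1297 lower (9.3%), against NKmature 1199 (8.6%) and 1647 (11.8%), and against PreB 1457 (10.4%) and 1412 (10.1%). CLP was farthest with 3724 higher (26.7%) and 1770 lower (12.7%), followed by MkP with 2786 (20%) and 1744 (12.5%) and ProE with 2260 (16.2%) and 2111 (15.1%). Among the other groups IgM+SP had 2334 higher (16.7%) and 1377 lower (9.87%), and GM had 1394 (9.99%) and 1951 (14%). The correlation of single arrays with CD4 arrays was highest for NKmature (0.876 to 0.890) and ProB (0.874 to 0.886) and lowest for ProE (0.756 to 0.764). These comparisons share the 2 CD4 arrays. In the comparison with ETP, which in common use stands for early thymic progenitors, 1940 genes were higher in CD4 (13.9%) and 1750 lower (12.5%).

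**Figure D5:**
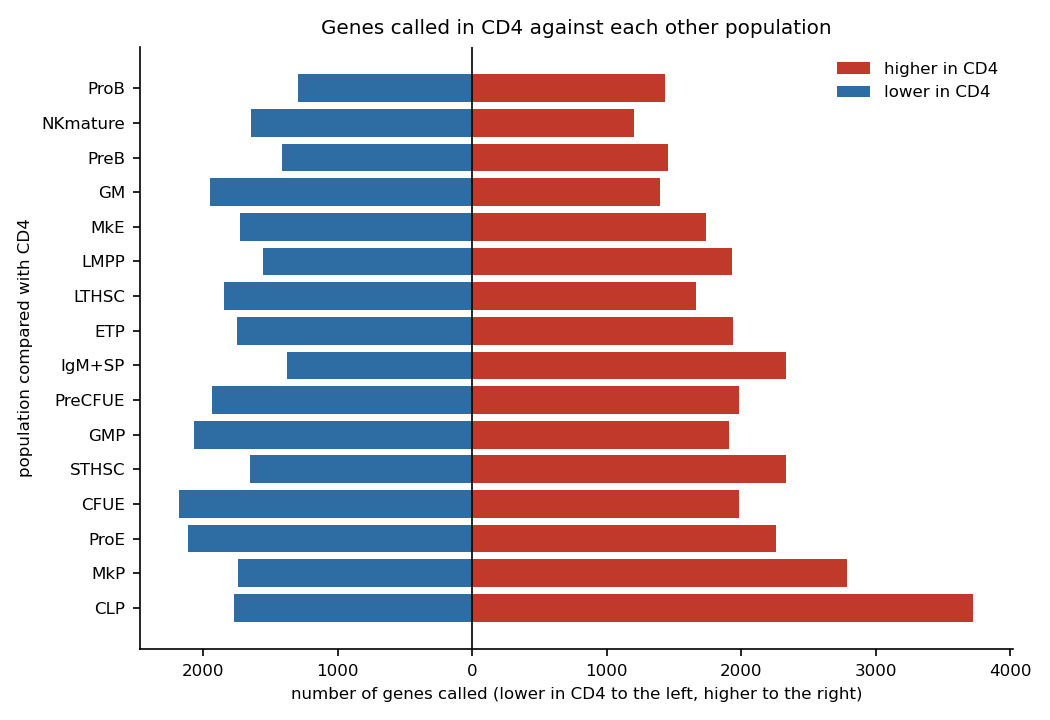
Number of genes called higher (red, right) and lower (blue, left) in CD4 against each of the other 16 populations, at an adjusted p under 0.05 and at least 2-fold, sorted by the total from ProB at the top to CLP at the bottom. The totals run from 2733 for ProB to 5494 for CLP.

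Against ProB, the largest rises in CD4 were Ccr7, Bcl11b, Als2cl, Cd5, St8sia6 and Slfn1. Ccr7 had 10.72 and 11.13 on the CD4 arrays, and the ProB mean was 4.54 (difference 6.39 ± 0.29, adjusted p = 2e-19, limma). St8sia6, a sialyltransferase, had 9.20 and 10.24, and the ProB mean was 3.51. The largest falls were Klra8, Gzma, Smim5, Siglech, Bcl11a and Cox6a2, which include genes of NK cells and of plasmacytoid dendritic cells. Klra8, an NK cell receptor, had 2.68 and 2.78 on the CD4 arrays, and the ProB mean was 10.58. Siglech, a plasmacytoid dendritic cell lectin, had 5.58 and 4.51, and the ProB mean was 11.42. The ProB group, far under CD4 in Ccr7 and Bcl11b, was next to CD4 in Cd3g, Cd3d, Cd3e and Cd4, for Cd4 mainly through 1 array.

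Against NKmature, Cd5, St6gal1, Ccr7, Als2cl, Trim12a and Btla were the largest rises in CD4. St6gal1, another sialyltransferase, had 11.17 and 11.28 on the CD4 arrays, and the NKmature mean was 3.38. Btla, an inhibitory receptor of B and T cells, had 10.41 and 10.59, and the NKmature mean was 3.65. The largest falls were Gzma, Klre1, S100a8, Klrb1a, Chil3 and Cd244a. Gzma, a granzyme of killer cells, had 4.97 and 4.67, and the NKmature mean was 13.12 (difference -8.30 ± 0.99, adjusted p = 1.7e-08, limma). Klre1 and Klrb1a, NK cell receptors, fell by 8.01 and by 7.63. S100a8 and Chil3, neutrophil and macrophage genes, fell by 7.71 and by 7.63 with standard errors near 2 (1.96 and 1.88). These errors rest on the spread shared by all 17 groups. The NKmature arrays themselves were close together, at 12.13 and 12.14 for S100a8 and at 10.12 and 10.13 for Chil3. After blocking on sex class both genes had positive differences that did not pass.

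Against PreB, the largest rises were Trbv1, Cd3g, Bcl11b, Cd5, Cd3d and Thy1, and the largest falls Ebf1, Rag1, Tifa, Cd93, Eps8 and Mgst1. Cd3g had 11.22 and 10.77 on the CD4 arrays, and the PreB mean was 2.90. Thy1, a surface marker of mouse T cells, had 11.34 and 11.35, and the PreB mean was 4.10. Ebf1, the factor that specifies B cells, had 2.96 and 2.88, and the PreB mean was 11.57 (difference -8.66 ± 0.45, adjusted p = 2e-18, limma). These genes were picked as the largest differences, so it follows from the choice that their PreB and CD4 arrays did not overlap.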

How the data were processed

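The authors extracted total RNA from 2000 purified marrow cells per sample, amplified it in 2 rounds and hybridised it to Affymetrix mouse arrays, per the labels' protocols and the series design text. Each deposited value is the linear intensity of 1 probe set on 1 array, computed by RMA according to the series' design text; the software version is not stated there. Intensities are relative within an array, and 2 CD4 arrays limit the precision.

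Log2 was taken with no pseudocount. Of 45101 probe sets, 35890 were listed in the platform annotation, 34958 with 1 gene symbol and 932 with several (not named). Symbols were updated through RefSeq gene IDs. The brightest probe set over all arrays stood for each of 18194 genes (9012 had several), and 13949 genes were tested, those whose mean exceeded 3.889 (the overall median log2 value) in 1 group or more. Limma 3.58.1 (R 4.3.3) estimated 17 group means from the 47 arrays jointly, leaving 30 residual degrees of freedom; tests were two-sided, and p-values were adjusted by Benjamini-Hochberg within a comparison. A call needed an adjusted p under 0.05 and at least 2-fold. A gene was highest (lowest) in CD4 when called in all 16 single comparisons, and its gap is the smallest of the 16 differences. The scripts were tested on simulated data.

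Named are the 20 highest and 12 lowest genes by gap, the 10 largest rises and falls against the mean, 6 each against the 3 nearest groups (plain symbols only), and members of 27 gene lists (349 genes, 317 named by the annotation, 311 tested). Which list members to print was decided after their values were seen. Members and lists were chosen with earlier results of these data known, and the lists carry no test. Alternatives were averaging a gene's probe sets, dropping the filter, a filter at 5.968, quantile normalization again, centring on the array median, a floor of 16, trended robust spread, lymphoid groups alone, equal array weights, the replicate number and the sex class as blocks, and leaving out each array. The fits of the CD4 sex class alone and without ProB were added after seeing the data.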

Additional observations from a re-analysis of the deposited data

Results flagged for a closer look

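In the outlier check of 24 tests (8 gene lists in the 3 groups of 4 or 5 arrays), 1 array stood apart. PreB replicate 4 had a mean level of 5.44 for the T cell receptor signalling list, and the nearest of the other 3 PreB arrays had 5.20. The gap took 0.912 of the range of the 4 arrays, against a critical value of 0.829. Both CD4 arrays (9.32 and 9.30) lay far above it. Chance flags about 1 in 20 groups, so about 1 flag in 24 is within what chance gives.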

How the results depend on the processing

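The 2 CD4 arrays limit the precision of all CD4 values, and dim genes are bounded by the array background. Over 47 fits that each left out 1 array, 1495 to 1657 genes were higher in CD4 than the mean of the others, 1172 to 1450 were lower, 160 to 181 were highest and 59 (without CD4 replicate 2) to 115 (without CD4 replicate 1) were lowest. Among the other alternatives 337 counts stayed within 1.5 times and 9 did not. The genes lowest in CD4 numbered 46 with the mean of all probe sets, 137 after blocking on sex class and 241 with the arrays of the CD4 sex class alone, where the genes highest numbered 387. Fewer groups were compared in the last setting. After blocking on sex class, 1109 genes were higher in CD4 than in IgM+SP and 1273 than in ETP, while 2966 were lower than in LTHSC, 2386 than in LMPP and 2638 than in NKmature. For these 5 comparisons the sex class cannot be told apart from the group, and the block takes its shift from PreB, ETP and LMPP arrays alone.

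Of the named results, 9 turned direction: a called difference changed sign, or an uncalled one was called on the other side. Changes of sign without a call are not in this number, such as Fos, which ran from -0.85 to 1.00 as single arrays were left out. Zap70 was 2.09 higher with the mean of all probe sets. After blocking on sex class Gzma was at 2.97, Nkg7 at 2.26, Fcer1g at 1.19, Lyz2 at 2.34 and Bop1 at -0.25, and against NKmature S100a8 was at 1.23 and Chil3 at 1.41. Dusp1 was at 1.25 with the arrays of the CD4 sex class alone. Their causes were not tested. The block also ended the calls of H2-Ab1, Cd74, H2-K1, H2-D1, Tap1, Tap2, Psmb9, Psmb10, Mx1, Rsad2, Cd22, Ebf1, Csf3r, Procr, Fgd5, Mcm4, Gnl3, Rps15, Zbtb7b and Txnip. Quantile normalization shifted the median difference against the mean by -0.117 (1307 higher, 1461 lower), and with it the higher calls were 45.8% of calls against STHSC in place of 58.5%, 43.3% against LMPP in place of 55.4%, 44.9% against MkP in place of 61.5% and 48.8% against CLP in place of 67.8% (78.2% after centring). The replicate block, with the number of the labels as a term, gave 1520 higher, 1335 lower, 177 highest and 83 lowest, and ended the calls of Zbtb7b, Fgd5, Bop1 and Mx1. Of 32 pairs of equal number with CD4, 0 correlated over 0.1 (-0.11 to 0.089), and over all groups 53 of 311 did (-0.4 to 0.4). Of 47 arrays, 15 correlated best with their own number. Pairs of unequal number were not counted beside these, so whether arrays of equal number share more than the number was not tested.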
